A study of Mus musculus with 24 samples.

Results

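The comparison was between 2 mouse embryonic stem cell lines that both lack the endogenous long noncoding RNA gene Firre, one of which also carries an inducible Firre transgene. The 12 libraries were found by their labels, 6 titled as the induced rescue line and 6 titled as its rescue control, 1 per line at 0, 30, 60, 90, 120 and 150 min, out of 23 libraries analysed and 24 in the labels. The knockout Firre line has the genotype Firre KO with an inducible Firre transgene, and the knockout control line has the genotype Firre KO. The labels give doxycycline to both, with the 0 min libraries included, so that drug exposure was shared. Where the wild type background was set beside them, the wild type Firre line carries the inducible transgene (5 libraries, its 60 min library not analysed here) and the wild type control carries none (6 libraries, genotype WT). All cells were grown on gelatin with serum, LIF and inhibitors of MEK and GSK3. The labels give neither the promoter or integration site of the transgene, nor the number of clones behind a line, so line and genotype cannot be told apart. The times of a line served as its replicates, and no label says that they came from separate cultures, so p-values measure the spread between these libraries, which may be technical.

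Firre is a nuclear RNA transcribed from the X chromosome. It carries a repeated sequence, binds the nuclear matrix factor Hnrnpu and lies close to several loci on other chromosomes. ATAC-seq inserts adapters into DNA with a transposase, so that the number of reads at a site reports how accessible its chromatin is. A line with the gene deleted and the RNA supplied from a transgene allows the question of what the RNA does away from the place where it is made.

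Reads in the consensus peaks numbered 6993739 to 8321426 per library in the knockout Firre line and 5725518 to 10204641 in the knockout control. Promoter peaks held 35.7 ± 0.456% of the counts in the knockout Firre line and 36.0 ± 0.844% in the knockout control (SD, n = 6 each; exact sign-flip test over the 6 pairs of times, two-sided, p = 0.469). In a principal component analysis of the 12 libraries the first component held 18.8% of the variance and was highest in 2 libraries of the knockout control, those of 90 and 30 min. The second (12.8%) kept the lines apart without overlap, and the 30 min library of the knockout control was its extreme. Marker promoters of embryonic stem cells (Pou5f1, Sox2, Nanog and 4 others) held 17.8 CPM per kb of peak in the knockout Firre line and 17.3 CPM per kb in the knockout control. CPM are read counts scaled to a common library size. Promoter peaks of fibroblast, endoderm, trophoblast, mesoderm and neural markers held 5.84 to 8.97 CPM per kb in the knockout Firre line and 5.95 to 9.08 CPM per kb in the knockout control. No marker promoter in these 6 lists was called.

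The knockout Firre line differed from the knockout control at a small share of sites, in both directions, and mostly by less than 2-fold. Of 129515 tested peaks, 1183 (0.913%) were called by edgeR's quasi-likelihood test at a Benjamini-Hochberg adjusted p of 0.05 or less, 737 higher (0.569%) and 446 lower (0.344%) in the knockout Firre line. The median absolute log2 fold change was 0.56 among the peaks called higher and 0.50 among those called lower. Changes of 2-fold or more were fitted at 43 of the 737 peaks called higher and 26 of the 446 called lower. At 416 and 295 of them, the fold was under 1.5. The direction was shared by all 6 pairs of times at 594 of the peaks called higher and 379 of those called lower. The peaks were called on these same pairs, so this agreement is a description.

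Most called peaks, like most tested peaks, were intronic or intergenic, and promoters were a smaller share of them. Of the peaks called higher, 334 were intronic (45.3%) and 280 intergenic (38.0%), and 46 were annotated as promoters. Of those called lower, 176 were intronic (39.5%), 178 intergenic (39.9%) and 35 promoters. Over all tested peaks, 41.1% were intronic and 32.6% intergenic. Promoter peaks made up 13.1% of tested peaks, but 6.24% of the peaks called higher and 7.85% of those called lower. Among the 16990 promoter peaks themselves, 0.271% were called higher and 0.206% lower. The distance to a gene start in the peak annotation had a median of 13621 bp for peaks called higher. For peaks called lower it was 11694 bp, and for tested peaks 11704 bp. That start is not always the nearest one, as the Firre promoter peak has a distance of 70534 bp, so these medians are rough. The count of called peaks depended on the method. DESeq2 called 153 and loess offsets gave 2014. Dropping both of the control libraries that stood apart, 30 and 90 min, left 568, and dropping the 0 min libraries left 668.

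Few of these peaks were also called when the transgene was carried in the wild type background, whose libraries are separate from the 12. There the Firre line was compared with its control by the same test, and 106 of 129515 peaks (0.0818%) were called, 79 higher and 27 lower. The 737 peaks called higher in the knockout background had a median log2 fold change of 0.0009 in the wild type background, and 371 of them (50.3%) had the same sign there. The 446 peaks called lower had a median of -0.01 there, and 240 (53.8%) had the same sign. The difference between the backgrounds itself was called at 113 of the 737 and 54 of the 446 (0.266% of all tested peaks). These peaks were chosen by their values in the knockout background, which enter that difference, so a larger share than over all peaks is built in. At the rest of the 737 and 446 it was not called, which does not show that the 2 backgrounds agree.

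**Figure D1:**
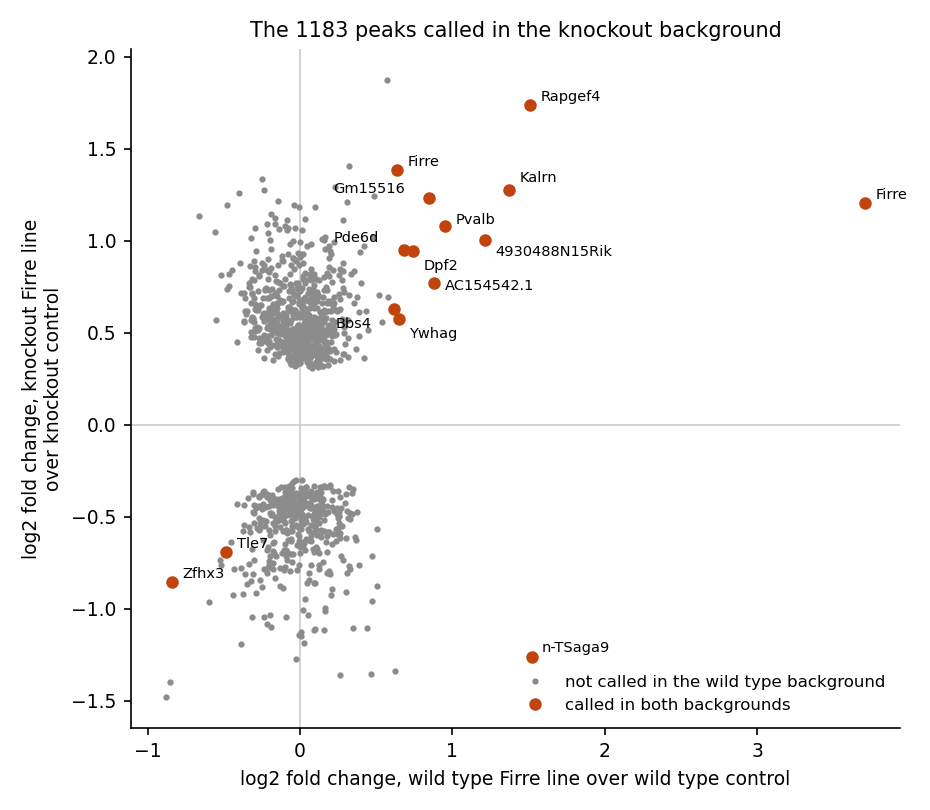
Log2 fold change of the knockout Firre line over the knockout control (vertical) against that of the wild type Firre line over the wild type control (horizontal), for the 1183 peaks called in the knockout background. Filled circles are the 15 peaks called in both backgrounds, 14 of them in the same direction, and the grey points are spread on both sides of a wild type fold change of 0.

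The targeted gene was examined first at its own locus, where 19 peaks fell. The labels do not give the sequence of the transgene or the extent of the deletion. Reads at the Firre peaks may therefore come from transgene DNA or from what the deletion left, and these sources and a change in accessibility of the locus cannot be told apart. In both knockout lines 16 of the 19 had under 1 CPM in every library, 12 had no read in the knockout Firre line and 10 none in the knockout control. A count of 0 over the 6 libraries allows a mean of up to 0.0653 CPM in the knockout Firre line and 0.0634 CPM in the knockout control, from a floor of 3 counts and for counting error only. For 15 of the 19 peaks, with under 12 reads in the 12 libraries together, no fold is given.

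Firre was called higher in the knockout Firre line at 2 peaks. The peak in exon 18 of 20 (chrX:50569280-50570236, mm10) had 12.7, 21.7, 22.5, 17.9, 15.3 and 15.8 CPM at the 6 times in the knockout Firre line, against 8.24, 4.63, 8.09, 4.18, 8.88 and 9.60 CPM in the knockout control. No library of the knockout Firre line was as low as any control library. The log2 fold change was 1.21 ± 0.22 (SE; edgeR adjusted p = 0.0179). Without the 60 min library of either line that call was lost.

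The Firre promoter peak (chrX:50634917-50635918) had 2.30, 2.82, 3.30, 2.32, 2.55 and 1.74 CPM in the knockout Firre line, against 0.676, 0.741, 0.928, 0.253, 0.777 and 1.98 CPM in the knockout control. The lines overlapped through the control library of 150 min. The log2 fold change was 1.39 ± 0.25 (edgeR adjusted p = 0.0004). With the transgene in wild type cells, the exonic peak had 13.0, 36.7, 31.2, 25.5 and 22.2 CPM at 0, 30, 90, 120 and 150 min in the wild type Firre line, against 1.35 to 2.72 CPM in the wild type control, and was called higher (log2 fold change 3.71 ± 0.28, edgeR adjusted p = 6.44e-06). The promoter peak was also called higher there (0.64 ± 0.11, edgeR adjusted p = 0.000113). The other peaks that could be fitted, an intronic peak and a peak at a transcript end of Firre, had log2 fold changes of 1.26 ± 0.51 and 1.25 ± 0.50 in the knockout background and were not called (edgeR adjusted p = 0.262 and 0.244). Summed over the 19 peaks, the locus held 21.4 ± 4.39 CPM in the knockout Firre line and 8.70 ± 3.04 CPM in the knockout control (SD, n = 6 each). The sum was higher in 6 of 6 pairs (exact sign-flip test, two-sided, p = 0.0312, the smallest that 6 pairs allow, and 0.0781 after Benjamini-Hochberg adjustment over 5 library measures). The exonic peak held most of it. Without that peak the sum was 3.73 ± 0.813 CPM in the knockout Firre line and 1.43 ± 0.934 CPM in the knockout control, higher in 5 of 6 pairs (exact sign-flip test, two-sided, p = 0.0625, adjusted 0.104).

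**Figure D2:**
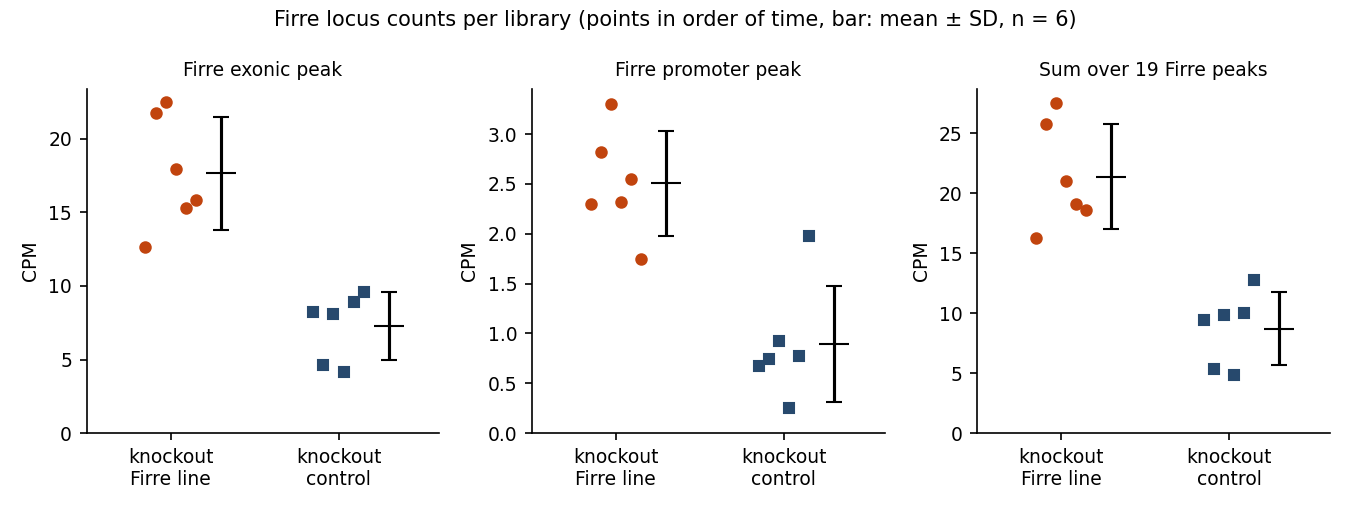
Counts (CPM) at the Firre exonic peak, the Firre promoter peak and summed over the 19 Firre peaks, with the knockout Firre line left of the knockout control; points are libraries in order of time, and bars give the mean ± SD of 6. At the exonic peak the 6 libraries of the knockout Firre line, 12.7 to 22.5 CPM, all lie above the control libraries, 4.18 to 9.60 CPM.

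The Firre promoter is shown because its peak was among the few with counts in a line whose gene is deleted. The RefSeq window of 300 bases around the start (GRCm38.p6, chrX:50635272-50635571, minus strand) lies inside that peak, and capitals mark its only match to the motifs searched, the E-box CACGTG.
Firre promoter: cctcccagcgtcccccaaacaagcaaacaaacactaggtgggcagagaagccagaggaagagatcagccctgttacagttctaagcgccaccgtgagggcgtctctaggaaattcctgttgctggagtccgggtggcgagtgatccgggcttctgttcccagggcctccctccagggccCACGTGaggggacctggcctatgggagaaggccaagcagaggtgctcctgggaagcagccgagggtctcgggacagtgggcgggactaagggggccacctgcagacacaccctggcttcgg
An E-box stands in 1179 of the 11649 windows (10.1%) that lie inside a tested peak. A match of this kind is a description of the letters.

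The peak with the smallest p of all lay in Rapgef4, which encodes a cAMP-activated exchange factor for the small GTPase Rap. The peak lies in intron 1 of 5 of an annotated transcript (chr2:71983023-71984048), starting 1758 bp past the end of the RefSeq promoter window of Rapgef4. It had 5.32, 11.8, 9.01, 16.4, 14.1 and 19.2 CPM at 0, 30, 60, 90, 120 and 150 min in the knockout Firre line, against 2.97, 3.70, 3.18, 4.05, 4.22 and 4.85 CPM in the knockout control. The lowest library of the knockout Firre line, at 0 min, stood above the highest control library. The fitted fold was 3.33 (log2 fold change 1.74 ± 0.13, edgeR adjusted p = 3.69e-19). With the transgene in wild type cells the same peak had 3.72, 7.31, 13.7, 13.0 and 16.0 CPM at 0, 30, 90, 120 and 150 min in the Firre line, against 2.96 to 4.59 CPM in its control (1.51 ± 0.15, edgeR adjusted p = 1.46e-13).

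A peak in intron 1 of 3 of Pde6d, a prenyl-binding protein gene, lies 23524 bp from the start of Ptma, the prothymosin alpha gene (chr1:86549363-86551159). It had 10.5, 16.8, 15.7, 19.5, 21.8 and 18.3 CPM at the 6 times in the knockout Firre line, against 9.73, 8.52, 10.2, 7.98, 8.77 and 8.32 CPM in the knockout control. At 0 min the lines were 10.5 and 9.73 CPM, and the 5 later libraries of the knockout Firre line all exceeded 15 CPM. The log2 fold change was 0.95 ± 0.12 (edgeR adjusted p = 1.5e-07) and 0.69 ± 0.12 in the wild type background (edgeR adjusted p = 0.001).

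In all, 14 peaks were called in the same direction in both backgrounds, 1.18% of the 1183 called in the knockout background and 13.2% of the 106 called in the wild type background. Over all tested peaks, 0.0818% were called in the wild type background and 0.913% in the knockout background, in either direction. The 14 peaks were singled out after their values were seen. Of these, 12 were higher and 2 lower. The 12 were the 2 Firre peaks, Rapgef4, Pde6d, an intergenic peak near Gm15516, an intergenic peak 59398 bp from the start of Bbs4 (a subunit of the ciliary BBSome complex), a peak in intron 1 of Ywhag (the 14-3-3 gamma protein), a peak in intron 1 of Dpf2 (a subunit of BAF chromatin remodelling complexes), a peak at the transcript end of Pvalb (the calcium-binding protein parvalbumin), a peak in the last exon of Kalrn and intergenic peaks near AC154542.1 and 4930488N15Rik. The 2 lower ones were a peak in intron 5 of Zfhx3, a homeobox transcription factor gene, and an intergenic peak near Tle7.

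The intergenic Gm15516 peak (chr14:45724080-45724931) had 1.15, 4.96, 4.19, 6.45, 5.73 and 5.61 CPM in the knockout Firre line, against 1.49, 2.04, 1.72, 1.65, 2.22 and 2.87 CPM in the knockout control. The knockout Firre line was below its control at 0 min and above it at the 5 later times. The log2 fold change over the 6 times was 1.24 ± 0.19 (edgeR adjusted p = 1.89e-05).

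The Bbs4 peak (chr9:59385791-59388031) had 9.78, 15.3, 14.2, 19.1, 18.3 and 17.3 CPM in the knockout Firre line, against 8.78, 12.4, 10.1, 9.25, 9.88 and 11.1 CPM in the knockout control (log2 fold change 0.63 ± 0.10, edgeR adjusted p = 8.96e-05). The Ywhag peak (chr5:135912935-135913800) had 4.89, 8.45, 9.01, 8.91, 9.04 and 7.35 CPM in the knockout Firre line, against 6.08, 4.63, 5.57, 4.94, 5.00 and 5.74 CPM in the knockout control (0.57 ± 0.13, edgeR adjusted p = 0.00874). At both peaks the 0 min library was the lowest of the knockout Firre line, and it lay within the range of the control libraries.

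Dpf2 had a median of 5.41 CPM (4.31 to 7.102) in the knockout Firre line, against 3.08 CPM (2.55 to 3.52) in the knockout control (log2 fold change 0.94 ± 0.16, edgeR adjusted p = 0.000116). The Zfhx3 peak had a median of 3.84 CPM (3.02 to 4.39) in the knockout Firre line, against 6.04 CPM (5.05 to 9.76) in the knockout control (-0.85 ± 0.15, edgeR adjusted p = 0.000198). The lines did not overlap at either peak. The remaining members of the 14, Pvalb, Kalrn, AC154542.1, 4930488N15Rik and Tle7, had log2 fold changes of 1.08, 1.28, 0.77, 1.01 and -0.69 in the knockout background and of 0.95, 1.37, 0.88, 1.21 and -0.48 in the wild type background. With 1 library of the knockout Firre line left out, the calls were lost at Kalrn (120 or 150 min), AC154542.1 (120 min) and Ywhag (60 or 120 min). DESeq2 did not call Ywhag or AC154542.1. Ywhag and 4930488N15Rik were not called when the control libraries of 30 and 90 min were both left out.

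At 8 of the 12 peaks higher in both backgrounds, the 0 min library was the lowest of the knockout Firre line, against 3 of 12 in the knockout control. Over all tested peaks the 0 min library was the lowest at 22.0% in the knockout Firre line and 14.97% in the knockout control. Among the wild type lines it was the lowest at 10 of the 12 peaks in the Firre line (19.5% of all tested peaks) and at 2 of the 12 in its control (18.3%). Over the 737 peaks called higher in the knockout background, these shares were 34.2% in the knockout Firre line and 21.0% in the knockout control. At the same 737 peaks they were 27.7% in the wild type Firre line and 20.6% in its control. The 12 were chosen by their values in these libraries, so this is a description. A single peak was called in opposite directions, an intergenic peak whose nearest gene is n-TSaga9 (chr4:10864924-10865477). It was lower in the knockout Firre line than in the knockout control (-1.26 ± 0.31, edgeR adjusted p = 0.0197) and higher in the wild type Firre line than in its control (1.52 ± 0.29, edgeR adjusted p = 0.00241).

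**Figure D3:**
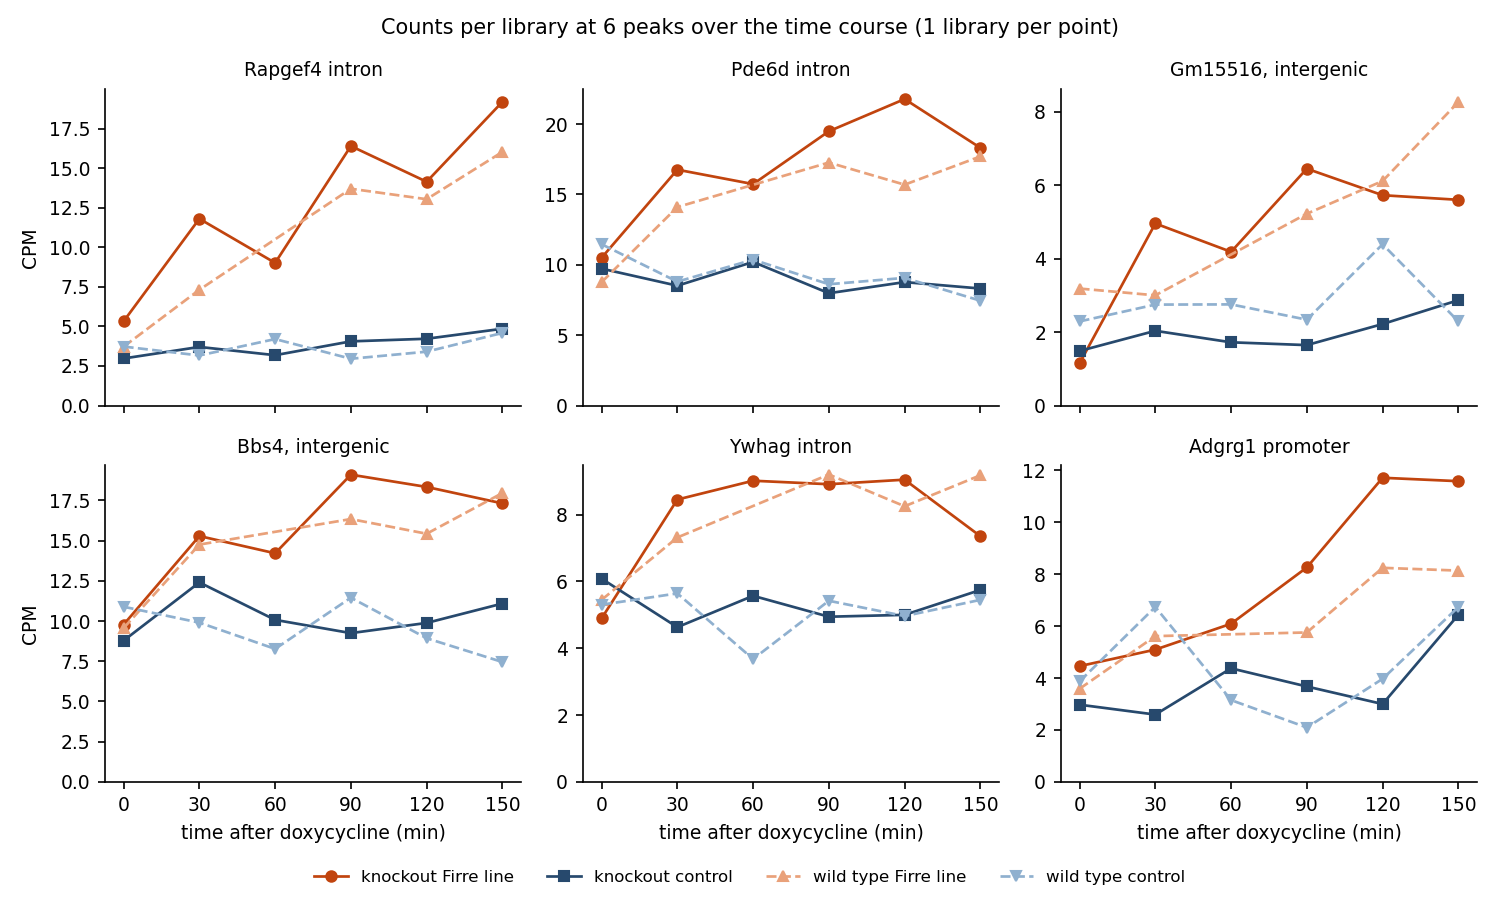
Counts (CPM) against time after doxycycline at 5 of the peaks called higher in both backgrounds and at the Adgrg1 promoter peak, with 1 library per point and solid lines for the knockout background. At Rapgef4 the knockout Firre line had 5.32 CPM at 0 min and 19.2 CPM at 150 min, while the knockout control stayed between 2.97 and 4.85 CPM.

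Whether the difference between the lines grew after doxycycline was tested by its slope over the 6 times. At no peak did the slope pass (edgeR, 0 of 129515, 0%, smallest adjusted p = 0.21). An unadjusted p under 0.05 was found at 7451 peaks (5.75% of those tested), near the share that this threshold passes without any effect. Neither DESeq2 nor limma-voom called any peak (0 each). A step between 0 min and the later times gave 0 calls too (5929, or 4.58%, with an unadjusted p under 0.05). At Rapgef4 the slope of the log2 difference was 0.31 per hour (edgeR adjusted p = 0.875), and at Pde6d it was 0.38 per hour (edgeR adjusted p = 0.796). As a set, the called peaks had a median difference in the 0 min libraries of much the same size as later. Single peaks departed from this, such as Gm15516 and Ywhag, which lay below the control at 0 min. Peaks called higher had a median log2 difference of 0.46 at 0 min, with 691 of 737 positive, and of 0.60, 0.46, 0.50, 0.52 and 0.54 at the later times. Peaks called lower had a median of -0.47 at 0 min, with 433 of 446 negative, and of -0.51, -0.44, -0.50, -0.47 and -0.45 later. These peaks were chosen by their mean over the same times, so the sign and the size at any single time are a description.

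The difference at 0 min, estimated from the slope fit, was itself called at 7 peaks (0.0054%), 4 higher and 3 lower. The higher ones were an intergenic peak near Gm45949, an intronic peak of Myof (a membrane repair protein of the ferlin family), an intronic peak of Gm34922 and the Firre promoter peak. The Myof peak had 8.63 CPM at 0 min in the knockout Firre line, against 3.11 CPM in the knockout control. The lower ones were an intronic peak of 9630028I04Rik, an intergenic peak near 9030404E10Rik and an intronic peak of Vdac1, a channel of the outer mitochondrial membrane. The Vdac1 peak had 6.62 CPM at 0 min in the knockout Firre line, against 14.9 CPM in the knockout control.

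Among promoter peaks, the 8 with the smallest p called higher were at Firre, Adgrg1, Bcr, Gm35097, Hmcn2, Ctsl, Naaa and Snrpb. Their fitted folds ran from 1.33 to 2.62, and 5 of the 8 did not overlap between the lines (0.538% of tested peaks had all 6 libraries of the knockout Firre line above those of the control). Among all 737 peaks called higher, 40.6% did not overlap. These peaks were chosen by p on the same libraries, so their separation is a description. Adgrg1 encodes an adhesion G protein-coupled receptor. Its promoter peak (chr8:94983801-94984931) had 4.46, 5.10, 6.09, 8.26, 11.7 and 11.6 CPM at the 6 times in the knockout Firre line, against 2.97, 2.59, 4.37, 3.67, 3.00 and 6.44 CPM in the knockout control. The knockout Firre line was higher at each time, and the highest control library, at 150 min, lay within its range. The log2 fold change was 1.02 ± 0.16 (edgeR adjusted p = 0.000194), and without a term for time this call was lost. In the wild type background the peak had a log2 fold change of 0.48 ± 0.18 and was not called (edgeR adjusted p = 0.488).

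Bcr had a median of 4.48 CPM (3.31 to 5.11) in the knockout Firre line, against 2.21 CPM (1.39 to 2.97) in the knockout control (log2 fold change 0.96 ± 0.18, edgeR adjusted p = 0.000912). Hmcn2, a hemicentin of the extracellular matrix, had a median of 32.6 CPM (31.5 to 35.0) in the knockout Firre line, against 24.4 CPM (20.4 to 27.4) in the knockout control (0.42 ± 0.08, edgeR adjusted p = 0.0014). At both promoters the lines were separate, and in the wild type background the fitted difference was negative (-0.19 and -0.15, not called). Snrpb, a core protein of the spliceosome, had a median of 16.3 CPM (14.1 to 18.2) in the knockout Firre line, against 11.9 CPM (10.9 to 13.9) in the knockout control (0.42 ± 0.09, edgeR adjusted p = 0.00808). Ctsl, a lysosomal protease gene, and Naaa, a lysosomal amidase gene, were called higher by 0.63 ± 0.13 and 0.69 ± 0.15 on the log2 scale. Snrpb, Ctsl and Naaa were not called by DESeq2, and Ctsl was not called without the knockout Firre library of 150 min. Naaa also lost its call without the control libraries of 30 and 90 min and without the 0 min libraries.

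The 8 promoter peaks called lower with the smallest p were at Myo1g, Ece1, Arhgef1, Lemd1, Mypopos, Itgb7, Mir142hg and Ptprz1. They lay 1.32- to 1.597-fold lower in the knockout Firre line, and 7 of the 8 did not overlap between the lines (0.412% of tested peaks had all 6 libraries below those of the control). Among all 446 peaks called lower, 43.7% did not overlap. The choice by p on the same libraries makes this separation a description too. Myo1g, a myosin best known from blood cells, had a median of 6.54 CPM (5.81 to 8.77) in the knockout Firre line, against 10.7 CPM (9.88 to 12.4) in the knockout control (log2 fold change -0.67 ± 0.11, edgeR adjusted p = 5.65e-05). Ece1, an endothelin-converting protease gene, had a median of 11.6 CPM (9.78 to 12.5) in the knockout Firre line, against 16.3 CPM (13.1 to 18.6) in the knockout control (-0.50 ± 0.09, edgeR adjusted p = 0.00101). Neither gene's libraries overlapped between the lines. Arhgef1 had a median of 17.1 CPM (14.6 to 18.3) in the knockout Firre line, against 22.8 CPM (19.999 to 26.7) in the knockout control (-0.43 ± 0.09, edgeR adjusted p = 0.00258). Itgb7, the beta chain of leukocyte homing integrins, had a median of 10.998 CPM (8.72 to 12.8) in the knockout Firre line, against 15.3 CPM (13.0 to 16.3) in the knockout control (-0.47 ± 0.10, edgeR adjusted p = 0.00288). Ptprz1, a receptor tyrosine phosphatase gene, overlapped between the lines through the control library of 0 min, at 18.9 CPM (-0.40 ± 0.09, edgeR adjusted p = 0.00597). The calls at Arhgef1, Lemd1, Mir142hg and Ptprz1 were lost when the control libraries of 30 and 90 min were both left out, and Ptprz1 also without the knockout Firre library of 150 min. Mypopos lies opposite Mypop, and ATAC-seq reads carry no strand, so the gene behind that peak cannot be told.

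A promoter of each direction is shown, the RefSeq windows inside the Adgrg1 peak (chr8:94984149-94984448, plus strand) and inside the Itgb7 peak (chr15:102231886-102232185, minus strand). Capitals mark the 2 matches of Adgrg1 to the AP-1 motif TGANTCA on either strand, which stands in 590 of 11649 windows (5.06%). Itgb7 held none of the 12 motifs searched, which says only that these letters are not in the window.
Adgrg1 promoter: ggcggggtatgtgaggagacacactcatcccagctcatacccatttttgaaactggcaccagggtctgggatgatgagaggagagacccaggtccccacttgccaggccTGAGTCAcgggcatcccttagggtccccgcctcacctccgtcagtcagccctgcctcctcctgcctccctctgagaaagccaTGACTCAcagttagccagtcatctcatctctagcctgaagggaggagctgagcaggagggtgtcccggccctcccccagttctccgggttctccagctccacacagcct
Itgb7 promoter: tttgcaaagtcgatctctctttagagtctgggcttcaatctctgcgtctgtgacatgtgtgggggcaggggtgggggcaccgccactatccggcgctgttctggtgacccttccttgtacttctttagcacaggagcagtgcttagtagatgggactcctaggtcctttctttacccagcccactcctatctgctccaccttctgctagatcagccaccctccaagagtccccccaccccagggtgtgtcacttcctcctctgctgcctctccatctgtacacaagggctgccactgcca
Such a window lay inside 13 peaks called higher and 24 called lower. The median window held 8 CpG dinucleotides in the peaks called higher and 8.5 in those called lower, against 20 over all 11649 windows. The AP-1 letters stood in 1 of the 13 and 1 of the 24, and ETS (CCGGAAG) in 2 of the 13 and 0 of the 24, against 14.95% of all windows.

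The miR-142 locus on chromosome 11 held neighbouring peaks that were both called lower. This microRNA is known from blood cells. The peak at the start of its host transcript Mir142hg (chr11:87754694-87757400) holds the microRNA itself, and had a median of 25.2 CPM (20.3 to 26.4) in the knockout Firre line, against 31.8 CPM (29.2 to 38.9) in the knockout control (log2 fold change -0.40 ± 0.08, edgeR adjusted p = 0.00351). The next peak, 2496 bp from the start of Mir142b (chr11:87758218-87760684), had a median of 21.6 CPM (16.5 to 25.4) in the knockout Firre line, against 30.9 CPM (27.7 to 34.4) in the knockout control (-0.52 ± 0.08, edgeR adjusted p = 4e-05). The lines did not overlap at either peak. The mature arms of miR-142a from RefSeq, which lie inside the first peak, are shown with the seed (bases 2 to 8) in capitals.
mmu-miR-142a-5p (chr11:87756867-87756887, plus strand): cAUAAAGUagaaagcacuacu
mmu-miR-142a-3p (chr11:87756903-87756925, plus strand): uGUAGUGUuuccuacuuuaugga
These 2 arms have different seeds. RefSeq also places mmu-miR-142b (chr11:87756906-87756925, minus strand, seed CCAUAAA) inside the first peak, and ATAC-seq reads carry no strand.

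Away from promoters, the 8 peaks called higher with the smallest p were Rapgef4, Pde6d and Gm15516 (above), and peaks at Gm49767, Rin3, Cald1, Chst11 and Vps45. Rin3, which activates the endosomal GTPase Rab5, had a peak at its transcript end with a median of 33.6 CPM (24.5 to 37.1) in the knockout Firre line, against 21.8 CPM (19.3 to 23.9) in the knockout control (log2 fold change 0.59 ± 0.09, edgeR adjusted p = 8.09e-06). Cald1, the actin-binding protein caldesmon, had an intron 1 peak with a median of 15.5 CPM (14.5 to 19.98) in the knockout Firre line, against 10.1 CPM (8.15 to 12.2) in the knockout control (0.66 ± 0.10, edgeR adjusted p = 1.28e-05). Both sets of libraries were separate.

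Chst11, a chondroitin sulfotransferase gene, held 3 neighbouring called peaks, all higher. The one with the smallest p had a median of 8.36 CPM (7.48 to 10.8) in the knockout Firre line, against 4.95 CPM (4.26 to 5.70) in the knockout control (log2 fold change 0.81 ± 0.12, edgeR adjusted p = 1.28e-05). The Gm49767 peak had a median of 9.12 CPM (6.71 to 10.5) in the knockout Firre line, against 4.92 CPM (3.42 to 5.74) in the knockout control (0.91 ± 0.13, edgeR adjusted p = 1.73e-06). A second peak called higher lay beside it, nearest to Apod, the lipid carrier apolipoprotein D. The intergenic Vps45 peak, near a gene of endosomal membrane fusion, was higher by 0.61 ± 0.09. None of these 5 was called in the wild type background. The difference between backgrounds was called at Gm49767, Rin3, Chst11 and Vps45, and at Cald1 it was not (edgeR adjusted p = 0.0592).

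The 8 other peaks called lower were at Fzd2, 9030404E10Rik, Tle7, Gm24551, Mir142b (above), Sestd1, Rap1gap2 and Fhl3. The intergenic peak 8895 bp from the start of Fzd2, a Wnt receptor gene (chr11:102594951-102596052), had a median of 4.14 CPM (2.99 to 5.47) in the knockout Firre line, against 8.61 CPM (6.77 to 10.3) in the knockout control (log2 fold change -1.04 ± 0.13, edgeR adjusted p = 1.33e-07). The peak near 9030404E10Rik had a median of 2.82 CPM (2.24 to 3.75) in the knockout Firre line, against 5.96 CPM (5.00 to 8.11) in the knockout control (-1.10 ± 0.15, edgeR adjusted p = 9.26e-07). In both, the knockout Firre line lay below the control in every library. Rap1gap2, which switches off Rap, held 3 neighbouring called peaks, all lower. The one with the smallest p had a median of 17.6 CPM (16.0 to 22.4) in the knockout Firre line, against 26.5 CPM (23.7 to 28.5) in the knockout control (-0.53 ± 0.09, edgeR adjusted p = 4.78e-05). Fhl3, a LIM-domain protein gene, overlapped between the lines (-0.68 ± 0.12, edgeR adjusted p = 0.000177).

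**Figure D4:**
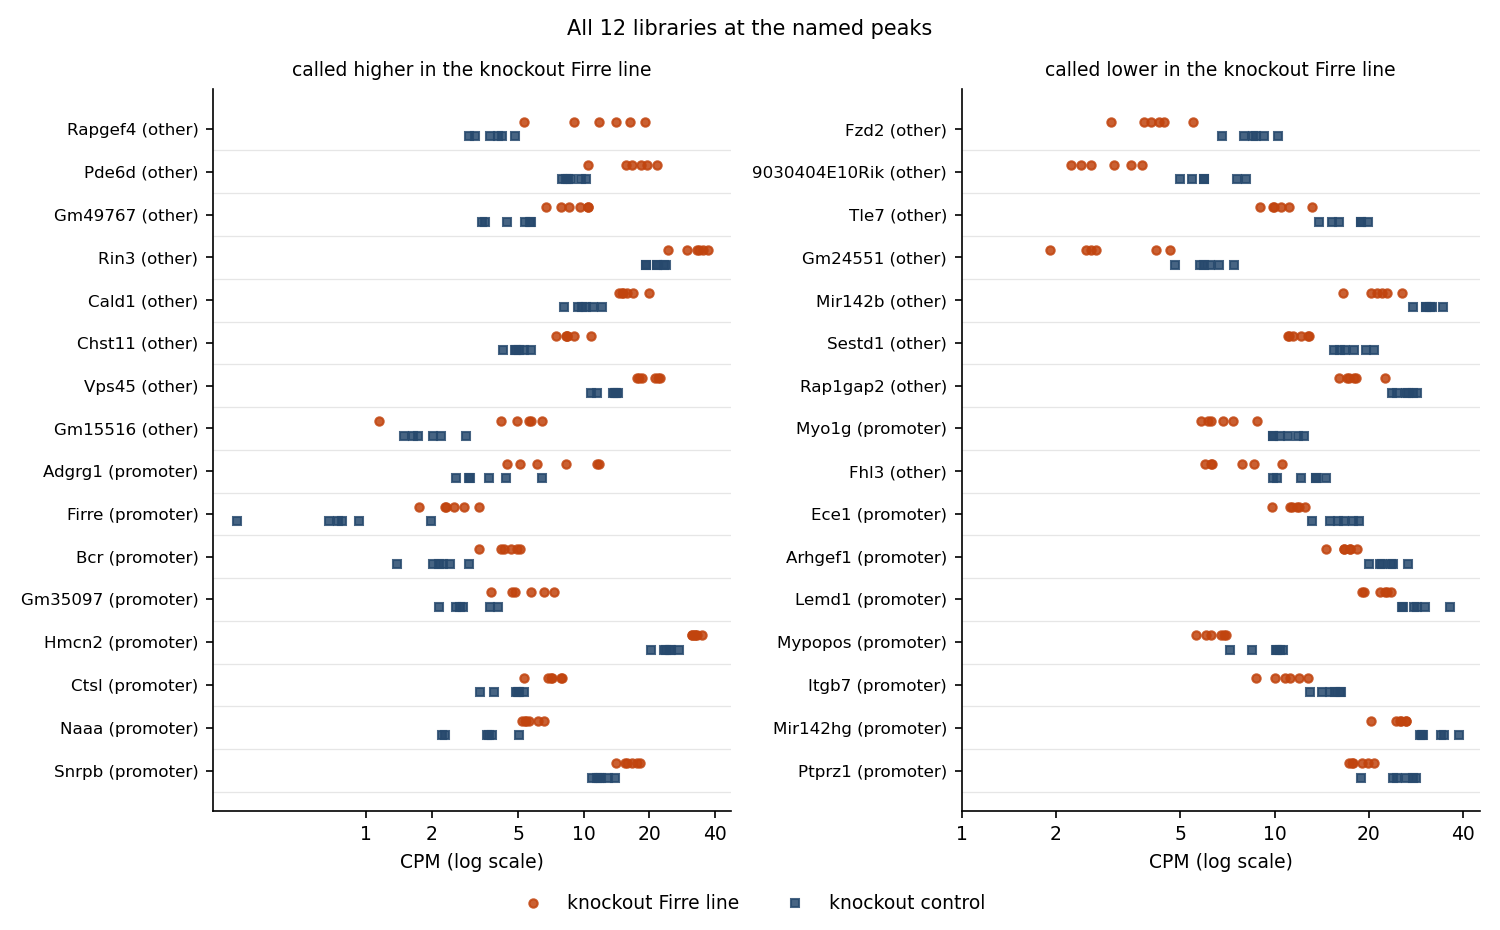
Counts (CPM, log scale) in all 12 libraries at the 16 peaks called higher (left) and the 16 called lower (right) with the smallest p, promoters and other sites; circles are the knockout Firre line, drawn above the squares of the knockout control. The lines are separate at 12 of the 16 peaks called higher and 14 of the 16 called lower, which were chosen by p on these same libraries.

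Lists of genes of pluripotency, of the pathways that the culture medium acts on, of stress responses and of Firre biology were examined at their promoters. Together they held 198 peaks, of which 1 was called (0.505%). Over all 22024 promoter peaks 116 were called (0.527%), 66 higher (0.300%) and 50 lower (0.227%). The share in the lists is near that background, so the low count is not a result about these genes. Here a gene's promoter peaks are those within 1000 bp of an annotated start or in its promoter annotation. Of 23 naive pluripotency peaks, 20 formative and primed, 21 germ layer and trophoblast, 17 immediate early, 11 ERK target, 22 LIF and STAT3, 9 integrated stress, 8 heat shock, 20 imprinted and 15 fibroblast peaks, none was called in either direction. The same held for 5 peaks of genes in contact with Firre, 9 of its partners (Ctcf and the cohesin genes Rad21, Smc3, Smc1a, Stag1 and Stag2), 6 of the X inactivation region and 7 of Wnt targets. The 10 genes of the 2-cell-like list had no tested promoter peak. All 7 Wnt target peaks had a negative log2 fold change (median -0.18), and 5 of them, at Tcf7, Rnf43 and Axin2, lie on chromosome 11, described next. Those on other chromosomes, at T and Lgr5, had -0.17 and -0.18. A link between the list and the chromosome was not tested. Among 11 p53 target peaks, 1 was called, higher, at Cdkn1a, the cell cycle inhibitor p21, with a median of 8.71 CPM (7.01 to 9.52) in the knockout Firre line, against 6.21 CPM (4.85 to 9.07) in the knockout control. The log2 fold change was 0.45 ± 0.12 (edgeR adjusted p = 0.0476), and the call was lost under 17 of 25 other settings.

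Chromosome 11 stood apart from the rest. It held 9899 tested peaks, with 24 calls higher (0.242%) and 113 lower (1.14%) in the knockout Firre line, and the median log2 fold change was -0.08. These were 7.64% of all tested peaks and 25.3% of all peaks called lower. Relative to the mean of the knockout control libraries, the chromosome 11 median was -0.06 ± 0.03 in the knockout Firre line and 0.01 ± 0.03 in the knockout control (SD, n = 6 each). At 0, 30, 60, 90, 120 and 150 min it was -0.03, -0.09, -0.02, -0.08, -0.06 and -0.06 in the knockout Firre line, against 0.02, 0.02, 0.02, -0.04, -0.02 and 0.03 in the knockout control. The ranges overlapped, and the knockout Firre line was the lower at 6 of 6 times. The chromosome was picked out after its values were seen, so this is a description. It lay between -0.17 and -0.13 in the wild type Firre line and between -0.14 and -0.12 in the wild type control. Myo1g, Fzd2, Mir142hg, Mir142b, Rap1gap2 and Vdac1, all called lower, lie on this chromosome. With chromosome 11 left out of the scaling, 1131 peaks were called over the genome.

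**Figure D5:**
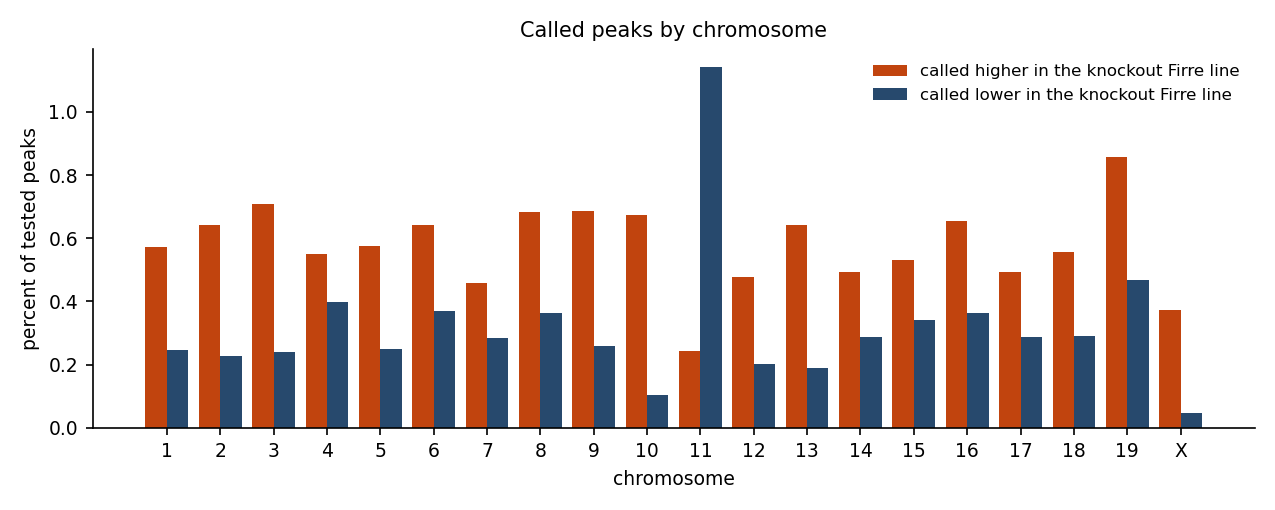
Percent of the tested peaks of each chromosome called higher (left bar) and lower (right bar) in the knockout Firre line. On chromosome 11 the lower calls reached 1.14% and the higher calls 0.242%, while on each other chromosome drawn the higher calls outnumbered the lower.

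Some called peaks were neighbours. Within 20 kb of each other and in the same direction lay 83 of them, in 40 groups, 21 higher and 19 lower, and the others stood alone. Beyond Chst11, Rap1gap2, miR-142 and Gm49767, they included pairs of peaks called higher at Timp3, an inhibitor of matrix metalloproteinases, at Sox2ot, the transcript that overlaps the pluripotency gene Sox2, and at the lysosomal protease gene Ctsl.

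The transgene contrast differed between the backgrounds at 345 of 129515 peaks (0.266%), 166 higher and 179 lower in the knockout than in the wild type background. With library sizes taken as total counts, 520 were called, 61.0% of them higher, against 48.1% as reported. The split moved the other way with DESeq2, where 13 of 67 were higher (19.4%), and without the control library of 60 min (33.3% of 439) or 150 min (35.3% of 1254). At the 3 peaks of smallest p in each direction, the transgene contrast was called in the wild type background and not in the knockout background. At Gm18260, Gm46426 and C330022B21Rik, neighbours on chromosome 13, the log2 fold change was 0.07 to 0.09 in the knockout background and -1.0005 to -0.988 in the wild type background. At Gm5566 it was -0.25 ± 0.09 in the knockout background, not called, and 0.72 ± 0.10 in the wild type background. A mitochondrial peak annotated to mt-Tr held 7.87 to 13.1 CPM in the knockout Firre line and 11.3 to 20.1 CPM in the knockout control. In the wild type Firre line it held 1180 to 1825 CPM and in the wild type control 5.25 to 8.80 CPM.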

How the data were processed

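ATAC-seq of mouse embryonic stem cells was analysed from raw counts per consensus peak, deposited by the authors without normalization as whole numbers. The submitters' processing notes name MACS2 2.2.7.1, featureCounts and the mm10 build. For the aligner, the treatment of duplicates and the transposase shift, the sources used here give nothing. No sample in the count table was left unmapped (0 of 23). Counts were tested with edgeR 4.0.16 (glmQLFit, robust, TMM scaling, filterByExpr with a minimum of 10 counts), with terms for line and time, Benjamini-Hochberg adjustment over 129515 peaks, and all 23 libraries sharing the spread (14 residual degrees of freedom, 11 for slopes). The standard error was derived from the F statistic. CPM are on TMM library sizes, and a floor of 3 counts covers only counting error, as PCR reads without molecular identifiers are not independent molecules. Single values were tested by exact sign flips over 6 pairs of times. The log2 differences by time used CPM plus 0.5. Named peaks were all 19 in Firre, the 8 promoter and 8 other called peaks of smallest p per direction, the 3 of smallest p per direction for the background difference and the slope, and list genes with a called promoter peak. The members and lists were chosen with earlier results of these data known. The tests were checked on simulated data. Alternatives were other scalings, filters, tools (DESeq2 1.42.0, limma 3.58.1), sample sets and left-out libraries. Promoter and microRNA sequences are from RefSeq tables of GRCm38.p6. The search used 12 motifs on both strands, for octamer factors ATGCAAAT, for ESRRB TCAAGGTCA, for KLF factors GGGNGTGGC, for AP-1 TGANTCA, for TEAD factors CATTCC, for E-box factors CACGTG, for CRE factors TGACGTCA, for ETS factors CCGGAAG, for NRF1 GCGCATGC, for YY1 AAGATGGC, for TCF and LEF factors CTTTGATC and for GATA factors GATAAG, with overlaps between motifs allowed. Other peaks were not searched. One gene list and the roles of a few genes are not reported here.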

Additional observations from a re-analysis of the deposited data

Results flagged for a closer look

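Among the named peaks and library measures, 128 groups of 6 libraries were examined for a sample far from the others, and 8 held one. Chance gives about 1 in 20 such groups where peaks are not chosen by their values. Most named peaks were so chosen, some by their slope over time, so that rate is no test here. In the knockout Firre line, the 150 min library was low at the Mir142hg promoter (20.3 CPM, the others 24.5 to 26.4), and the 0 min library was high at Rap1gap2 (22.4 CPM, the others 16.0 to 18.2). In the same line, the 0 min library was low at Gm18508 (0.575 CPM, the others 1.62 to 2.04), high at an exonic peak of Lrp4 (4.89 CPM, the others 0.381 to 1.34) and high at an intronic peak of Ogdh (3.88 CPM, the others 0.402 to 0.645). In the knockout control, the 0 min library was high at an intronic peak of Fsd2 (6.62 CPM, the others 2.38 to 3.45), the 150 min library was low at an intergenic peak near Lgalsl (13.2 CPM, the others 19.1 to 21.5), and the 30 min library was high at the Mcf2l promoter (12.2 CPM, the others 9.999 to 10.6). Fsd2, Lgalsl, Lrp4 and Ogdh, with Lamc3 and Gpatch2, were named for the smallest p of the slope, and none passed (edgeR adjusted p = 0.21 to 0.601).

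The transgene contrast of 21 named peaks differed between backgrounds (edgeR test of the difference, adjusted p of 0.05 or less, called at 0.266% of all tested peaks). Gm18260, Gm46426, C330022B21Rik, Gm5566, mt-Tr and Gm18508 were named for the smallest p of this same test. The others, apart from the Firre exonic peak, were named for the smallest p in the knockout background, which enters the difference. The count therefore follows from the choice and is a description. The log2 contrast in the knockout minus that in the wild type background was -2.50 at the Firre exonic peak. It was 1.15 at Bcr, 1.13 at Gm35097, 0.57 at Hmcn2, 0.99 at Naaa, 0.95 at Gm49767, 0.58 at Rin3, 0.79 at Chst11 and 0.56 at Vps45, all called higher in the knockout background. It was -0.79 at Myo1g, -0.72 at Lemd1, -0.55 at Ptprz1, -0.81 at Fzd2, -0.91 at 9030404E10Rik and -1.16 at Gm24551, all called lower there. It was 1.07 at Gm18260, 1.08 at Gm46426, 1.07 at C330022B21Rik and -0.97 at Gm5566, none of which was called in the knockout background. The largest values were -8.41 at mt-Tr and -6.92 at Gm18508. The wild type control had no read at Gm18508, so the fitted value there depends on the prior count and is no bound.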

How the results depend on the processing

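The count of peaks called between the knockout lines, 1183, was 2014 with loess offsets, 153 with DESeq2, 568 without the pair of control libraries that stood apart (30 and 90 min) and 668 without the 0 min libraries. Leaving out 1 library gave 524 to 1491 calls. It fell below 1183 by more than 1.5 times without the knockout Firre library of 30 min (592), 60 min (746), 90 min (719), 120 min (524) or 150 min (543), and without the control library of 0 min (735), 30 min (652) or 120 min (652). The other settings gave 813 (limma-voom) to 1637 (share of promoter counts as a covariate). The share of higher calls, 62.3%, was 51.6% without the control library of 150 min. For the difference between backgrounds, 345, the counts were 520 with total count scaling, 702 with loess offsets, 97 with the promoter share as a covariate, 160 without the control libraries of 30 and 90 min, 92 without the 0 min libraries, 215 with limma-voom and 67 with DESeq2. Leaving out 1 library gave 136 to 1254, with 224, 136 and 169 without the knockout Firre library of 30, 120 or 150 min, and 218, 190, 190 and 1254 without the control library of 0, 30, 120 or 150 min. The slope had 1 call from the 12 knockout libraries alone and 0 to 2 with 1 library left out, the 2 without the control library of 0 min. The cause was not tested. The time number serves as a block in the reported test. Same-time libraries correlated in their deviations by -0.0674 to 0.158, over 0.1 at 0 and 90 min and at no other time, so the labels' times do not show a pairing beyond the shared time. Without the replicate block 1040 peaks were called between the knockout lines and 318 for the difference between backgrounds. The summed Firre CPM differed by 12.7 CPM, and by 11.1 to 14.05 CPM with 1 pair left out, where 5 pairs cannot pass. Of 43 called named peaks, 28 kept their call under every setting run for them and 35 with any 1 library left out, and 7 lost it with DESeq2. Steps in time and the chromosome 11 scaling were added after seeing the data. The sign-flip tests of the Y chromosome sum, the mitochondrial share and the Firre sum without the exonic peak were not in the analysis plan. Depth limits peaks under 1 CPM, among them most of Firre.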

Other observations

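The 8 tested peaks of the Y chromosome held 21.6 ± 2.91 CPM in the knockout Firre line and 14.9 ± 1.70 CPM in the knockout control (SD, n = 6 each). The sum was higher in 6 of 6 pairs (exact sign-flip test, two-sided, p = 0.0312, and 0.0781 after adjustment over 5 library measures). The wild type Firre line held 18.9 ± 2.82 CPM (n = 5) and the wild type control 19.4 ± 0.952 CPM (n = 6). Of the 8 peaks, 1 was called higher in the knockout Firre line.

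The share of counts from the mitochondrial genome was 5.27 ± 0.835% in the knockout Firre line and 5.38 ± 0.853% in the knockout control (SD, n = 6 each; exact sign-flip test, two-sided, p = 0.781).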
